A study of Homo sapiens with 2 samples.

Results

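Antigen presentation and the immunoproteasome were examined as a set of 32 genes in HT-29, an established cell line from a human colorectal adenocarcinoma. The members are genes of the classical and non-classical MHC class I molecules, of peptide transport and loading, of the proteasome and of MHC class II presentation. They were chosen by name, and every probe set annotated to a member alone was used, 80 in all. A probe set is a group of short probes read as 1 measurement of a transcript. Of the 32 genes, 31 had such a probe set, out of 19775 genes measured in all.

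The study compared 2 cultures of the same line, each transfected with a small interfering RNA (siRNA) and harvested 72 h later. In the baseline culture the siRNA was directed at firefly luciferase, which human cells do not have (siLuc). In the other it was directed at human IFITM1, an interferon-induced membrane protein (siIFITM1). Each RNA was read on 1 single-colour array, so a difference has no replicate spread to be compared with, and no test was possible. With bulk RNA from a culture, fewer cells that express a gene and less RNA per cell cannot be told apart.

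MHC class I molecules display peptides cut from the cell's own proteins on its surface, where cytotoxic T cells read them. Peptides are cut by the proteasome, carried into the endoplasmic reticulum by the TAP transporter, trimmed by the ERAP peptidases and placed on the class I heavy chain, which is held by beta-2 microglobulin (B2M). Interferon gamma raises most of these genes in epithelial cells and exchanges the 3 catalytic subunits of the proteasome for induced ones, which makes the immunoproteasome. MHC class II molecules display peptides from the endosomes, mainly on dendritic cells, macrophages and B cells, and epithelial cells can be induced to make them.

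The targeted transcript was lower on the siIFITM1 array, with a signal of 640.0 for siLuc and 237 for siIFITM1, which is 37.1% of the baseline. Signals are in the arbitrary units of the MAS5 summary, and all log2 ratios are siIFITM1 over siLuc. The 18 hybridisation control probe sets had a median log2 ratio of -0.07. Of 10 markers of colon epithelium 9 passed the filter on dim signals and all 9 were among the brighter genes, while CDX2 had signals of 5.87 and 19.1. Of 14 markers of professional antigen presenting cells and other leukocytes 12 were measured and 5 passed. PTPRC, the antigen of all leukocytes, had 13.7 and 49.3, under the filter. None of the 5 was among the brighter genes. The summed signal of the 12 was 1071 for siLuc and 837 for siIFITM1, and that of the 10 epithelial markers was 178657 and 181772. Of 7 markers of fibroblasts and endothelium 4 passed, none of them a brighter gene, and the summed signal of the 7 was 746 and 858. Among them LUM, a matrix proteoglycan gene, went from 132 to 386, a log2 ratio of 1.54. The other 3 that passed were below 0, COL1A1 at -0.49, DCN at -0.51 and PECAM1 at -0.24. Of all dimmer genes 58.1% were below 0. The higher sum on the siIFITM1 array therefore does not stand for these markers in common. Sums of different lists cannot be ranked against each other, because each probe set has its own response.

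Most genes of the antigen presentation machinery had almost the same signal on both arrays. Of the 31 measured members 26 passed the filter, that is, the brightest probe set had a geometric mean signal over both arrays of at least 57.4, the median of all probe sets. None of the 26 was 2-fold apart, where 3.03% of the 12225 genes past the filter were. The log2 ratio was below 0 in 19 of the 26, a share of 73.1% where 52.6% of all genes past the filter were below 0. The members' median was -0.08 and that of all genes past the filter was -0.02. There were 3 members at least 1.5-fold apart: the peptide transporter gene TAP2, the peptidase gene ERAP1 and the immunoproteasome gene PSMB8. That is 11.5% of the members, and 11.5% of all genes past the filter were as far apart, so the share of members was that of the background.

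**Figure D1:**
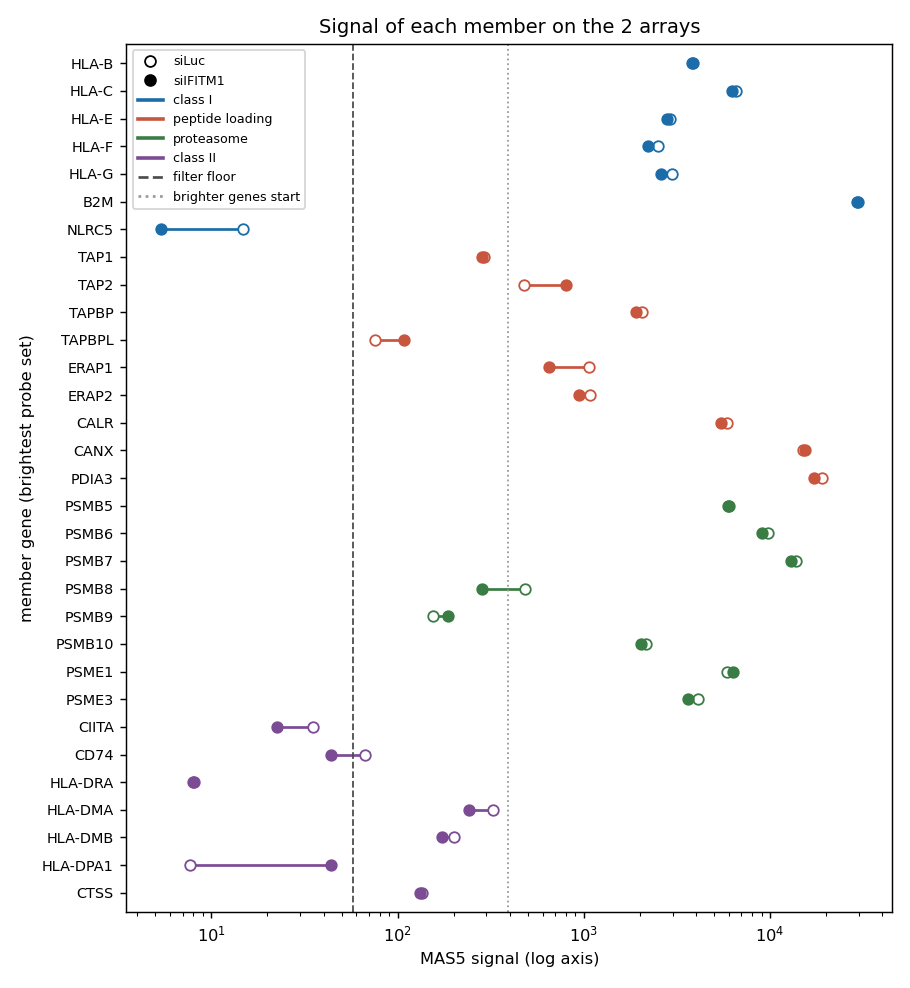
MAS5 signal (log axis) of the brightest probe set of each of the 31 measured members, with an open circle for the siLuc array and a filled circle for the siIFITM1 array, joined by a line; colours give the role, the dashed line is the filter floor of 57.4 and the dotted line the signal of 393 at which the brighter genes start. The circles lie almost on top of each other for most members, and wider gaps right of the floor are seen for TAP2, ERAP1, PSMB8 and TAPBPL; signals of different genes cannot be ranked against each other, because each probe set has its own response.

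The size of a ratio was read against the disagreement between probe sets of the same gene. Its SD was 0.193 among brighter probe sets, those with a mean signal of at least 393, and 0.496 among the dimmer ones that passed the filter. Of the 19 brighter members 16 were within 1 such SD of 0, or 84.2%, where 60.7% of all brighter genes were. The exceptions were TAP2 and ERAP1, both more than 3 SD from 0, and the second ERAP peptidase gene ERAP2 at 1.02 SD. The log2 ratio was below 0 in 14 of the 19, or 73.7%, beside 49.5% of all brighter genes. At least 1.5-fold apart were 2 of the 19, or 10.5%, beside 3.63% of all brighter genes. Beyond 2 SD lay 10.5% of the brighter members and 12.8% of all brighter genes.

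**Figure D2:**
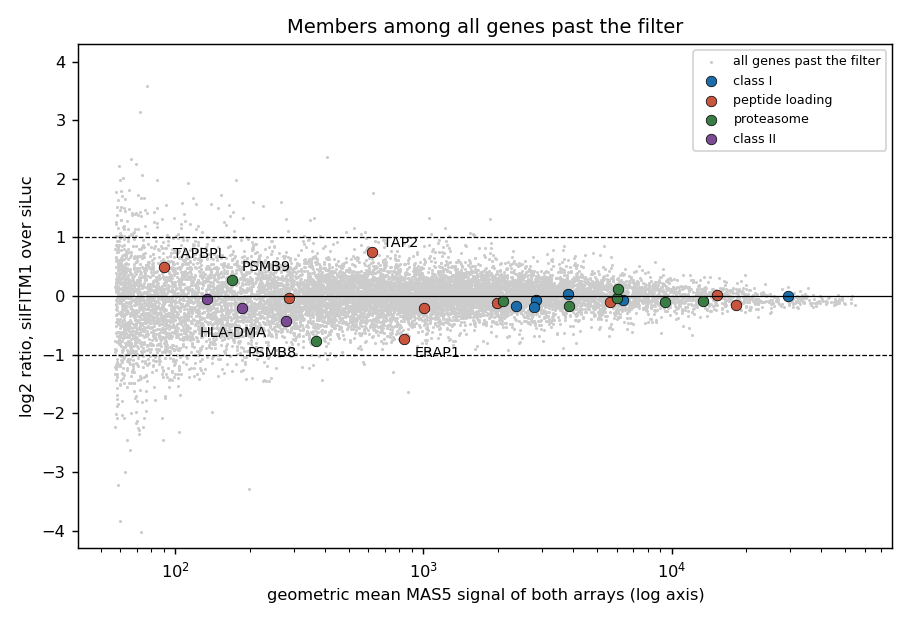
Log2 ratio of siIFITM1 over siLuc against the geometric mean MAS5 signal of both arrays (log axis) for the 26 members past the filter, coloured by role, over all 12225 genes past the filter in grey; dashed lines mark 2-fold. No member crosses either dashed line, and the grey cloud is wider at low signal, where TAPBPL, PSMB9 and HLA-DMA lie.

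Many promoters of the members hold the letters of an interferon response element or of a CCAAT box, and these stretches are shown because members of different roles have them in common. RefSeq promoter windows of assembly GRCh38.p14, from 250 bases before to 50 bases after a start site, were found for 24 of the 32 members. The core of the interferon-stimulated response element (ISRE), which interferon regulatory factors bind, was searched on both strands as GAAA, any 2 bases and GAAA again. It was found in the windows of 11 of the 24 members, and in 4.38% of the genes with a window. By window the share was 11 of 36 for the members and 3.57% for all 35116. Each stretch is 30 bases, 5′ to 3′ on the strand of the gene, with the matched letters in capitals. Where matches overlap they are shown as 1 run.
TAP1 (chr6:32853816-32853845, minus strand): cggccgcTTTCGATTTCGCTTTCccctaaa
TAP2 (chr6:32838778-32838807, minus strand): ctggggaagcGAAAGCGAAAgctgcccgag
TAPBP (chr6:33314076-33314105, minus strand): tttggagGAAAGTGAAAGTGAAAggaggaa
ERAP1 (chr5:96807924-96807953, minus strand): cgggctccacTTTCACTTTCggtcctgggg
ERAP2 (chr5:96876460-96876489, plus strand): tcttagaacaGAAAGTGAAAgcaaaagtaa
PSMB8 (chr6:32844032-32844061, minus strand): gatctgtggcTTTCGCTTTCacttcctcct
PSMB10 (chr16:67936852-67936881, minus strand): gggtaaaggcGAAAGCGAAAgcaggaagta
PSME1 (chr14:24136189-24136218, plus strand): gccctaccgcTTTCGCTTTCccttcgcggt
PSME2 (chr14:24146619-24146648, minus strand): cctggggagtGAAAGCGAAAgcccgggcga
B2M (chr15:44711366-44711395, plus strand): actctaaGAAAAGGAAACTGAAAacgggaa
HLA-F (chr6:29723268-29723297, plus strand): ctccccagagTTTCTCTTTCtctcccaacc

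The matches lay within 30 bases of the start site in ERAP1, ERAP2, TAPBP, PSMB8, PSMB10, PSME1 and PSME2, and further upstream in TAP2, TAP1, B2M and HLA-F. A match is a description of these letters and does not show that a factor binds there in HT-29 cells. In this comparison the members with a match did not share a direction. Of the 10 that passed the filter 7 were below 0, with a median log2 ratio of -0.10 and a range from -0.76 to 0.74. Of the 11 members past the filter with a window but no match 7 were below 0 too, with a median of -0.06. Of all genes past the filter 52.6% were below 0. The members with the highest and the lowest log2 ratio, TAP2 and PSMB8, both hold the match.

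These genes, TAP2 and PSMB8, are neighbours in the MHC on chromosome 6 with 0 protein-coding genes between them, and PSMB8, TAP1 and PSMB9 follow each other in the same way. Their promoters are shown from 250 bases before to 10 bases after the start site, with ISRE matches and, in PSMB8, a match to the gamma-activated site (GAS) in capitals. The GAS was searched as TTCNNNGAA, which reads the same on both strands. For PSMB8 the window is that of the start site which holds the ISRE.
TAP2 (chr6:32838730-32838989, minus strand): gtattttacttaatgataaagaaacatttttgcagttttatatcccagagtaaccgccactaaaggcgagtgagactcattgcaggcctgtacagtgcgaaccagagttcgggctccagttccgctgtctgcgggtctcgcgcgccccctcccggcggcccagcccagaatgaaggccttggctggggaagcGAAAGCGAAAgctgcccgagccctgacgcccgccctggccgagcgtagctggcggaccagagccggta
PSMB8 (chr6:32844038-32844297, minus strand): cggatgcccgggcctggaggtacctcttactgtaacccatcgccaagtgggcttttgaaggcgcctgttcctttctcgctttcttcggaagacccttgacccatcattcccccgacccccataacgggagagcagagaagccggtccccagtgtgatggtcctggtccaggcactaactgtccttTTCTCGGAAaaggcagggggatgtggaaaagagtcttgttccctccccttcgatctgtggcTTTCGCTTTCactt

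The GAS letters occurred in the windows of 4 of the 24 members, PSMB8, TAP1, PSMB5 and PSME3, and in 9.38% of all genes with a window. The log2 ratios of these genes were -0.76, -0.03, -0.03 and -0.17. The ratio of TAP1 was between -0.03 and 0.01 over the alternatives and above 0 after median centring, quantile normalization or a loess fit. That of PSMB5 was 0.01 after median centring.

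The CCAAT box, bound by NF-Y and part of the promoters of MHC genes, was searched as GATTGG on both strands. It was found in 9 of the 24 members and in 17.9% of genes with a window. The MHC members and B2M that hold it follow in stretches of 26 bases with the match in capitals.
HLA-B (chr6:31357220-31357245, minus strand): tctagagaagCCAATCagcgtcgccg
HLA-C (chr6:31272133-31272158, minus strand): tctagagaagCCAATCagcgtctccg
HLA-F (chr6:29723367-29723392, plus strand): tctagagaagCCAATCagtgtcgccg
HLA-G (chr6:29827759-29827784, plus strand): tttagagaagCCAATCagcgtcgccg
B2M (chr15:44711457-44711482, plus strand): gccttgtcctGATTGGctgggcacgc
HLA-DMA (chr6:32953162-32953187, minus strand): acgcttctctGATTGGtttagacaaa
HLA-DMB (chr6:32941035-32941060, minus strand): gcctacctagCCAATCtgtccctgtt

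The 4 class I stretches are the same at 23 of their 26 positions. Among the 9 members with the CCAAT box, all of which passed the filter, 6 were below 0, with a median log2 ratio of -0.17 and a range from -0.42 to 0.03. Of the 12 members past the filter without it 8 were below 0, with a median of -0.06. Of all genes past the filter 52.6% were below 0. HLA-B, HLA-C, HLA-F and HLA-G were read by probe sets whose probes can match several transcripts. The 9 members are therefore not 9 separate measurements.

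The class I molecules were bright and close to equal on the arrays. B2M, the light chain that every class I molecule needs, had a signal of 29457 for siLuc and 29533 for siIFITM1. HLA-B, a classical heavy chain, had 3799.6 and 3879.8, a log2 ratio of 0.03. HLA-C, the other classical heavy chain among the members, had 6525 and 6262, a ratio of -0.06. Both heavy chains and the light chain thus differed by less than the SD of 0.193 between probe sets of the same gene.

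The non-classical heavy chains had ratios just below 0 at their brightest probe sets. The class I genes are close relatives, so probes for one can also bind RNA of another. HLA-E, which presents leader peptides of other class I chains to natural killer cells, went from 2904 to 2783, a log2 ratio of -0.06. HLA-F went from 2503 to 2215 (-0.18), and HLA-G, best known from the placenta as an inhibitory ligand, from 2963 to 2612 (-0.18). All of these were within 1 SD of 0. The median of the 6 class I members past the filter was -0.06.

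Most other probe sets of the class I genes were below 0 too. Of the 18 brighter class I probe sets 14 were below 0, or 77.8%, where 50% of all brighter probe sets that name 1 gene were. The 4 above 0 belonged to B2M, HLA-B and HLA-F. Of the 18, 17 have identifiers of the kind given to probes that match several transcripts, so they read overlapping RNA and are not 18 separate measurements. The probe set for HLA-E without such an identifier went from 684 to 598, a log2 ratio of -0.20. That for HLA-F had 45.5 and 40.2, under the filter, and every HLA-G probe set has such an identifier. The bright signals of HLA-F and HLA-G therefore cannot be assigned to these genes alone. At HLA-C the furthest probe set went from 1965 to 1442 (-0.45). At HLA-F a second probe set went from 1693 to 2662 (0.65), opposite to the brightest, so no direction can be given for HLA-F. HLA-B and B2M came below 0, at -0.12 and -0.20, when all probe sets of the gene were averaged, and HLA-F came above it, at 0.10. The B2M average includes a probe set below the filter with signals of 62.4 and 39.7, and the HLA-F average includes that at 45.5 and 40.2.

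NLRC5, the transactivator of the class I genes, was not measurable above the dimmest signals. Its probe set had 14.8 for siLuc and 5.37 for siIFITM1, both under the filter floor of 57.4, and no ratio is given.

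Peptide transport and trimming held 2 of the 3 members that were at least 1.5-fold apart. TAP2, a subunit of the transporter that carries peptides into the endoplasmic reticulum, went from 479 to 802 at its brightest probe set, a log2 ratio of 0.74. A second probe set went from 553 to 635 (0.20) and a dimmer one from 55.5 to 92.0 (0.73). All 3 TAP2 probe sets past the filter were thus higher on the siIFITM1 array, by 0.20 to 0.74. The ratio of TAP2 was between 0.62 and 0.78 under the alternatives, and 1.44% of the brighter genes were as far from 0. The partner subunit gene TAP1, a dimmer gene, had 291 and 284, a ratio of -0.03.

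ERAP1, the peptidase that trims peptides in the endoplasmic reticulum, had probe sets that disagreed. The brightest went from 1071 to 647, a log2 ratio of -0.73. The next went from 429.6 to 491 (0.19) and a dimmer one from 76.4 to 82.3 (0.11). The probe sets therefore gave opposite signs. The average over all 5 probe sets of the gene, of which 3 passed the filter, was -0.11. ERAP2, a related trimming enzyme, went from 1078 to 939.7 (-0.20) at the brightest and from 989 to 966 (-0.03) at the next. Its dimmer probe sets went from 236 to 243 and from 112 to 142, so ERAP2 had no common sign either.

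The loading complex around the transporter was close to level. TAPBP encodes tapasin, which bridges TAP to the class I molecule, and went from 2065 to 1909 at its brightest probe set, a log2 ratio of -0.11. Dimmer TAPBP probe sets had ratios of 0.39 and -0.92, the latter from 87.1 to 45.9, under the floor. TAPBPL, which encodes the tapasin relative TAPBPR that edits peptides outside the complex, went from 76.0 to 108 (0.50). That is 1.01 SD for dimmer probe sets, and 31.8% of the dimmer genes were as far from 0.

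The chaperones of the loading complex, which also fold other glycoproteins, were close to level too. CALR, calreticulin, went from 5857 to 5462, a log2 ratio of -0.10. CANX, calnexin, went from 15078 to 15342 (0.03). PDIA3, the oxidoreductase ERp57, went from 19101 to 17238 (-0.15), and its 3 probe sets were all below 0. For CALR and CANX the probe sets had mixed signs, from -0.29 to 0.02 and from -0.10 to 0.12. The median of the 9 loading members was -0.10, with 6 below 0 and 2, TAP2 and ERAP1, at least 1.5-fold apart. Of all genes past the filter 52.6% were below 0 and 11.5% were at least 1.5-fold apart.

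**Figure D3:**
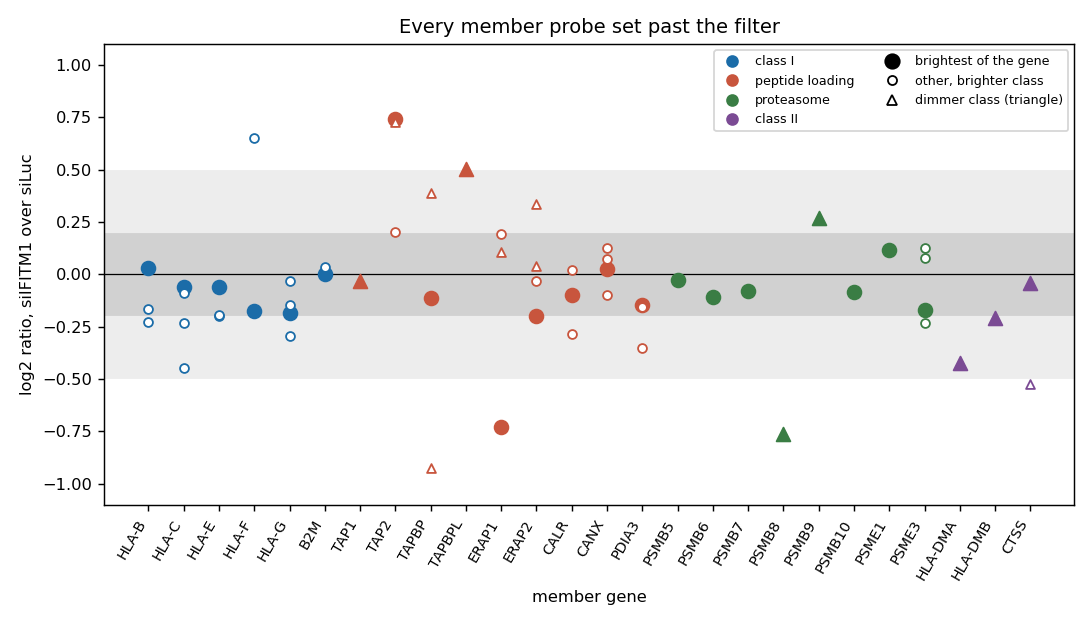
Log2 ratio of siIFITM1 over siLuc for each of the 58 member probe sets past the filter, by gene, coloured by role; filled large symbols are the brightest probe set of a gene, open ones the others, circles are brighter and triangles dimmer probe sets, and the dark and light bands are 1 SD (0.193 and 0.496) between probe sets of the same gene. The 3 TAP2 symbols lie on one side of 0, while those of HLA-F, TAPBP and ERAP1 lie on both sides.

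Over all 58 member probe sets past the filter 6, or 10.3%, were at least 1.5-fold apart, where 13.5% of all such probe sets were. They belonged to TAP2 with 2 probe sets, and to ERAP1, PSMB8, HLA-F and TAPBP with 1 each. Of 15 members with several probe sets past the filter 7 had all of them on the same side of 0. The same share over all genes with several probe sets past the filter was not counted.

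The proteasome holds 3 pairs of catalytic subunits that occupy the same places in the core. PSMB5, PSMB6 and PSMB7 are the standard subunits. PSMB5 had signals of 6055 and 5949, a log2 ratio of -0.03, PSMB6 9797 and 9099 (-0.11), and PSMB7 13755 and 12999 (-0.08). The standard subunits were thus level on the arrays within 1 SD. For PSMB7 the average with its dim second probe set was 0.95, from signals of 8.87 and 35.0 there that were both under the floor.

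The induced subunits did not share a direction. PSMB8, which replaces PSMB5, went from 481 to 284, a log2 ratio of -0.76 on its only probe set, which carries shared probes. PSMB9, which replaces PSMB6, went from 154 to 186 (0.27). PSMB10, which replaces PSMB7, went from 2155 to 2029.5 (-0.09). PSMB8 and PSMB9 were dimmer genes, and 14.7% of the dimmer genes were as far from 0 as PSMB8 and 57.6% as far as PSMB9.

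Set against its partner, the log2 ratio of PSMB8 was 0.74 below that of PSMB5, as the difference induced minus standard was -0.74. The SD of such a difference, from the SDs between probe sets, was 0.53. The difference was 0.38 for PSMB9 and PSMB6, less than the same SD of 0.53. It was -0.0047 for PSMB10 and PSMB7, with an SD of 0.27. The pairs therefore gave opposite signs, and the pair with bright signals on both sides differed by less than its SD.

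The activator caps that open the core were level as well. PSME1, a subunit of the interferon-induced PA28 cap, went from 5852 to 6343, a log2 ratio of 0.12. PSME3, which forms the nuclear cap PA28 gamma, went from 4084 to 3635 (-0.17), with 4 probe sets from -0.23 to 0.12. PSME2, the partner of PSME1, has no value here, because its probe set also names another gene. The median of the 8 proteasome members past the filter was -0.08, with 6 below 0, or 75%, where 52.6% of all genes past the filter were.

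The remaining proteasome genes give the level around these values. Of 13 other core and assembly genes past the filter 7 were below 0, with a median of -0.01 and a range from -0.19 to 0.18. PSMA1 and PSMA5, subunits of the outer rings, were the furthest, at -0.19 and 0.18. Of 15 genes of the regulatory particle, which feeds proteins into the core, 6 were below 0, with a median of 0.03. PSMD12 was at 0.23 and PSMC3, an ATPase of the base, at -0.15. None of these 28 genes, all of them brighter genes, was 1.5-fold apart, where 3.63% of all brighter genes were.

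Class II presentation was dim throughout. Of its 7 members 3 passed the filter, all of them dimmer genes. HLA-DMA, a chain of the molecule that exchanges peptides on class II, went from 324 to 242, a log2 ratio of -0.42. HLA-DMB, its partner chain, went from 201 to 174 (-0.21). CTSS, the protease cathepsin S that cuts the invariant chain, had 136 and 132 at its brightest probe set (-0.04) and 130.1 and 90.5 at the next (-0.52). At their brightest probe sets all 3 were below 0 and within 1 SD of it, where 58.1% of the dimmer genes were below 0. The second CTSS probe set was beyond the SD of 0.496. The sign of CTSS turned after quantile normalization and after a loess fit, and the average with its dimmest probe set, under the filter, was 0.71.

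The defining genes of class II cells were under the floor. CIITA, the master transactivator of class II, had 35.0 and 22.6 at its brightest probe set. HLA-DRA, the chain common to all HLA-DR molecules, had 8.0 and 8.03, and HLA-DPA1 had 7.67 and 43.7 at its brightest probe set. The other HLA-DPA1 probe sets went the opposite way, from 37.8 to 1.84 and from 6.41 to 1.33. CD74, the invariant chain, had 67.2 for siLuc and 43.6 for siIFITM1, a mean of 54.1 just under the filter. Of the 16 class II probe sets 12 were below the filter. The summed signal of the 12 measured leukocyte markers was also lower on the siIFITM1 array. Its largest siLuc signal was that of CD79A, a dimmer gene, at 306 and 177. All 5 past the filter were below 0, as were 58.1% of the dimmer genes. Markers under the filter entered the sum too, and of these PTPRC and CD83 were higher on the siIFITM1 array. A part of leukocyte RNA in the class II values was not tested.

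The 22 member probe sets below the filter show what such signals are worth. Their log2 ratios ran from -4.36 to 2.69, and 10 of them were past 2-fold. Below the filter, probe sets of a single gene had an SD of 1.66, and a 2-fold difference is smaller than that SD. The share of all probe sets below the filter that were past 2-fold was not counted. They give the signals of NLRC5, CIITA, HLA-DRA, HLA-DPA1 and CD74, and some averages over probe sets include them. No direction of a member is drawn from them alone.

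Genes that regulate the pathway showed no common direction. Of 20 regulators past the filter 10 were above and 10 below 0, with a median of -0.01. IFNGR1, a chain of the interferon gamma receptor, went from 3589.7 to 5410.4, a log2 ratio of 0.59, and its second probe set was at 0.65. JAK2, a kinase of that receptor, went from 53.0 to 103, from under the floor. IRF1, the interferon-induced activator of many members, had 749 and 773 (0.05), and RFX5, which binds the class I and class II promoters, 915 and 1015 (0.15). With IFNGR1 and JAK2, 2 of the 20 were at least 1.5-fold apart, beside 11.5% of all genes past the filter.

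Of the other class II and endosomal genes 8 passed the filter. Below 0 were 6 of them, or 75%, beside 52.6% of all genes past the filter, and the median was -0.17. HLA-DOA, which restrains HLA-DM, went from 124 to 64.7, a log2 ratio of -0.94, and HLA-DQB1 from 87.0 to 56.4, under the floor. Both were dimmer genes read by probe sets with shared probes. The median of the 5 brighter genes of this list, all proteases of the endosome, was -0.12.

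**Figure D4:**
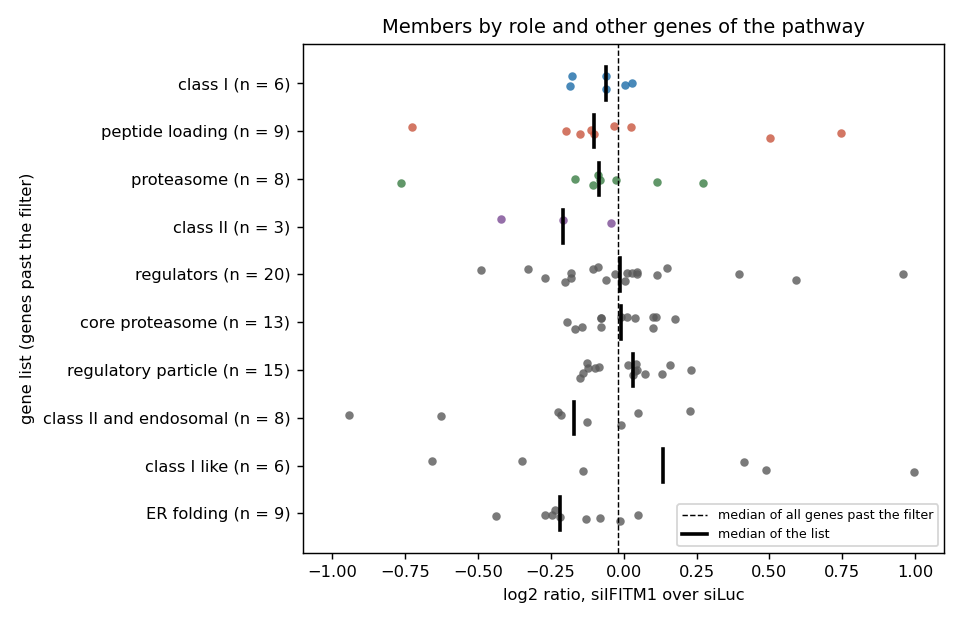
Log2 ratio of siIFITM1 over siLuc for each gene past the filter, for the members by role in colour and for other genes of the pathway in grey, with a black bar at the median of each list and a dashed line at the median of all genes past the filter, -0.02; vertical position within a row is only to separate the points. All core proteasome and regulatory particle genes lie between -0.19 and 0.23, and the furthest points are MR1 and JAK2 on the right and HLA-DOA on the left.

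Members inside and outside the chromosome of the MHC had similar medians. The 12 members on chromosome 6 that passed the filter had a median of -0.09 with 9 below 0, and the 14 elsewhere had a median of -0.08 with 10 below 0. Of all genes past the filter 52.6% were below 0. The class I heavy chains on chromosome 6 were read by probe sets with shared probes and are not separate measurements. Within the run of neighbours in the MHC, TAP2 was at 0.74, PSMB8 at -0.76, TAP1 at -0.03 and PSMB9 at 0.27.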

How the data were processed

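Total RNA from each culture was amplified to biotin-labelled cRNA, per the labels' protocols, and read on 1 array per siRNA. Probe signals were summarised with MAS5, per the submitters' processing notes. The deposited values are MAS5 signals, a linear intensity per probe set, with a mean of 500.1 on both arrays after 2% was trimmed at each end. The number of arrays limits the precision.

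Genes came from the platform annotation, where 41091 of 54613 probe sets that are not controls name 1 gene, 1801 several and 11721 none. Symbols were updated by Entrez identifier (41037 matched). Signals were taken to log2 without further scaling. The brightest probe set represents a gene, and it passed at or above the median signal. All members are named, with up to 2 genes of each other list whose probe sets shared a sign, IRF1 and RFX5. CDX2, PTPRC, CD83, MICA, COL1A1 and PECAM1 were named outside this rule after their values were seen. The members and lists were chosen with earlier results of these data known. Alternatives were other scalings, filters, thresholds and probe set rules. The summary was tested on simulated data, with shifts larger than the ratio of any member past the filter and independent noise per probe set. That test does not cover small ratios or shared probes. Python 3.11.15, numpy 2.4.6, pandas 2.3.3, statsmodels 0.14.6 and matplotlib 3.10.9 were used.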

Additional observations from a re-analysis of the deposited data

Results flagged for a closer look

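A probe set annotated to both PSME2 and the microRNA gene MIR7703 entered no comparison, because it names several genes. Its signal on the siIFITM1 array was above that on the siLuc array, at 9989 against 8592, a log2 ratio of 0.22.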

How the results depend on the processing

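Median centring, quantile normalization and a loess fit left 17 of 26 members below 0, where 19 were below 0 as deposited, and the medians of the 4 roles stayed below 0. Of all genes past the filter 47.7% were below 0 after median centring, 50.8% after quantile normalization and 50.6% after a loess fit. With no filter 2 members were at least 2-fold apart, NLRC5 and HLA-DPA1, both from signals under the floor. The share of all genes that far apart without a filter was not counted. With the filter and a 1.5-fold threshold there were 3 members, or 11.5%, the same share as of all genes past the filter. Without probe sets that carry shared probes 16 members remained and 12 were below 0, because fewer genes were measured. Of all genes past the filter in that setting 51.3% were below 0. Class I then rested on HLA-E alone. Of 217 values of single members under an alternative 7 moved by more than the SD between probe sets, all of them when probe sets were averaged. They were HLA-F, B2M, ERAP1, ERAP2, CANX, PSMB7 and CTSS. Each of these averages includes a probe set below the filter. For ERAP2 it went from 7.27 to 1.07 and for CANX from 4.85 to 9.96. Many of the 217 values could not move. A changed filter, or signals raised to the filter floor, left the ratio of a member that passed as it was. Leaving out probe sets with shared probes likewise changed nothing where the brightest probe set had none. Counting probe sets annotated to several HLA genes was not run, because 0 probe sets name a member with another HLA gene. Class II could not be given at the 75th percentile, where no member of it passed. Signal over background limits NLRC5 and the class II genes. No paired analysis was possible because each siRNA had 1 array.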

Other observations

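Relatives of the class I molecules that do not present peptides to cytotoxic T cells in the usual way went in different directions. Of 6 past the filter 3 were above and 3 below 0. MICA, a stress ligand of natural killer cells, went from 1015 to 1351, a log2 ratio of 0.41. FCGRT, the heavy chain of the neonatal Fc receptor, which also binds B2M, went from 697 to 442 (-0.66). MR1, which presents vitamin metabolites, went from 45.6 to 90.9 (0.99), from under the floor. MICA and FCGRT were brighter genes, and 3.63% of brighter genes were at least 1.5-fold apart, as FCGRT was. MICA was named after its values were seen.

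Folding and translocation genes of the endoplasmic reticulum, where class I molecules are assembled, were below 0 in 8 of 9 cases, with a median of -0.22, while 49.5% of brighter genes were below 0. PDIA4, an oxidoreductase, went from 9324 to 6892 (-0.44), and SEC61A1, the channel through which class I chains enter, from 3414 to 2835 (-0.27). Both probe sets of each gene were below 0. Among the loading members of the same compartment PDIA3 was at -0.15, CALR at -0.10 and CANX at 0.03.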
